A study of Pan troglodytes with 8 samples.

Results

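A set of 10 genes whose relatives were copied in the human lineage were followed in chimpanzee cells, by taking every region whose listed closest gene was one of them, at any distance. They were ARHGAP11A, SRGAP2, NOTCH2, TMEM14B, CHRNA7, FRMPD2, HYDIN, GPR89B, TBC1D3 and FAM72A. They gave 37 rows out of 218080, and 24 of these 37 carried a chimpanzee identifier and reads. The measurements were bulk ATAC-seq, in which a transposase cuts open chromatin, on cells sorted from chimpanzee cerebral organoids of the single induced pluripotent stem cell line SandraA. All groups came from organoids at week 8 of culture, within 3 days either way, and no gene was altered and no agent compared. The 4 populations were apical radial glia (aRG), which line the ventricle-like surface, basal radial glia (bRG), basal intermediate progenitors (bIP) and BCL11B+ neurons (N), with 2 libraries each. Whether libraries 1 and 2 of a population are separate cultures is not in the labels. The spread behind each p-value is that between such pairs, pooled over the 4 populations and drawn towards that of other regions. It may be technical.

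Segmental duplications copy stretches of a chromosome, and several that arose in the human lineage carried genes of the developing cortex. SRGAP2, a membrane-bending regulator of Rac and Cdc42, gave rise to SRGAP2B, SRGAP2C and SRGAP2D, and the small gene FAM72A, which lies beside it start to start, was copied with it. NOTCH2, the receptor, gave rise to the NOTCH2NL genes, and ARHGAP11A, a GTPase-activating protein, to ARHGAP11B, a gene known for amplifying basal progenitors. CHRNA7, a nicotinic acetylcholine receptor subunit, contributed to the fusion gene CHRFAM7A, and HYDIN, a protein of the motile cilium, to HYDIN2. FRMPD2, a scaffold protein with PDZ domains, gave FRMPD2B, and GPR89B, a Golgi pH regulator, has the close relative GPR89A. TBC1D3 is a hominoid family that has been linked to basal progenitors, and TMEM14B is a primate gene that has been linked to cortical folding. Accessibility near a gene is not its expression.

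Of the 10 genes, 8 were named by at least 1 row. No row named ARHGAP11A or TMEM14B. CHRNA7 with 6 rows, HYDIN with 10 and FRMPD2 with 2 had a chimpanzee identifier in each of them. SRGAP2 had one in 3 of 9 rows, NOTCH2 in 1 of 4, GPR89B in 1 of 2, TBC1D3 in 1 of 2 and FAM72A in 0 of 2. The 13 rows without one, 35.1% of the 37, held 0 reads by construction and say nothing about chimpanzee chromatin. Over the whole table, 3.08% of rows lacked a chimpanzee identifier. In all, 5 rows lay at a gene start, and of these only those of CHRNA7 and HYDIN had chimpanzee reads. The rows at the starts of NOTCH2, GPR89B and FAM72A did not.

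**Figure D1:**
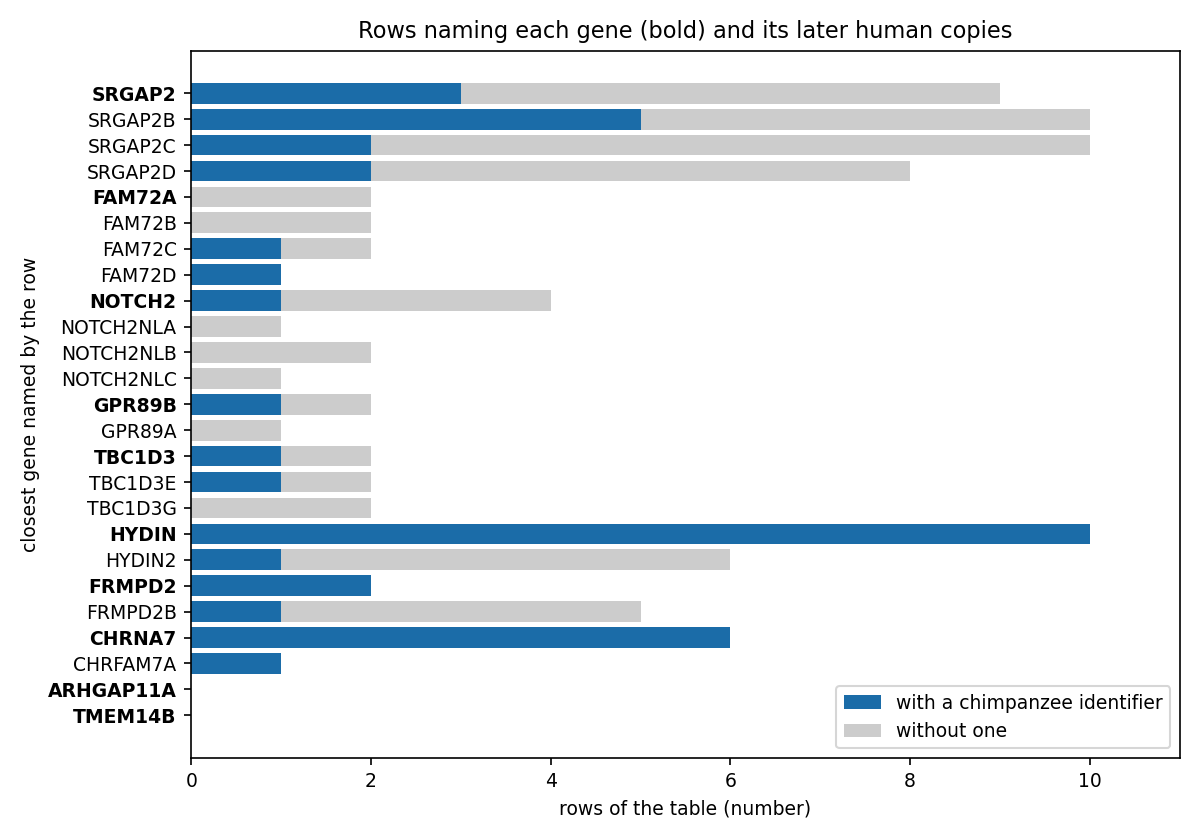
Number of rows (horizontal axis) whose closest gene is each of the 10 genes (bold) or one of their later human copies that has a row, split into rows with a chimpanzee identifier (blue) and without one (grey). HYDIN, CHRNA7 and FRMPD2 are all blue, whereas SRGAP2 is blue in 3 of 9 rows and FAM72A in 0 of 2.

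The later human copies were named by chimpanzee rows as well. A list of 26 such copies had 54 rows for 15 of its names, and 15 of these rows carried a chimpanzee identifier and reads, so the row's gene name came from a place in the human genome that the chimpanzee region need not share. Distances in the 37 rows of the 8 genes each fitted 1 human gene start to within 1 bp, so they are human distances and are used below to tell regions apart. Of the 15 copy-named regions, 12 lay within 50 kb of a region of one of the 10 genes in the chimpanzee genome (build panTro6). For 10 of them this was a region of their own ancestral gene, SRGAP2 or TBC1D3, and for those named for FAM72C and FAM72D it was an SRGAP2 region. The other 3 lay farther away. The FRMPD2B region (chr10:44051118-44052841) lay 109.6 kb from the nearest FRMPD2 region, and the CHRFAM7A region (chr15:8974417-8976205) lay 1231.2 kb from the nearest CHRNA7 region. The HYDIN2 region came from human chromosome 1 but lay on chimpanzee chromosome 16 (chr16:58658924-58659788), 71.9 kb from the nearest HYDIN region. A change of chromosome number between the species' identifiers was found in 0.632% of the 208154 regions with both.

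The SRGAP2 family formed a single stretch in the chimpanzee genome. Its 12 regions, 3 named for SRGAP2, 5 for SRGAP2B, 2 for SRGAP2C and 2 for SRGAP2D, alternated over 57.6 kb (chr1:181431142-181488735). The listed distance, each measured to the start of the copy that the row named, rose along the chimpanzee sequence in 11 of 11 steps, from 4.1 kb for the first SRGAP2C region to 60.8 kb for the last SRGAP2B region. Beside them lay the region at the start of FAM72D (chr1:181425877-181428160) and a FAM72C region (chr1:181419855-181420746). SRGAP2 and FAM72A are therefore described with these neighbours, which the rule for choosing regions does not include. This grouping was made after the values had been seen.

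The 8 libraries held 24913928 to 34845193 reads in the regions used. Marker loci, the sums over all regions of a marker gene, set radial glia apart from bIP and neurons but did not bear out every label. Levels are given in CPM, read counts scaled to each library's depth by the TMM method. SOX2, a radial glia factor, gave 118 and 101 CPM in aRG and 23.3 and 19.5 in neurons, and NEUROD2, a neuronal factor, gave 23.1 and 19.3 in aRG and 159 and 156 in neurons. All 7 radial glia markers fell in neurons against aRG by edgeR (28.0% of all loci). The locus of BCL11B, on which neurons were sorted, was lowest in neurons, with 54.9 and 47.0 CPM there, 65.9 and 58.2 in aRG, 64.2 and 56.2 in bRG and 77.9 and 74.4 in bIP. Summed over 7 neuron markers, bIP gave 647.5 and 619.8 CPM and neurons 595 and 565. Lists for apical and basal radial glia did not set aRG apart from bRG. The apical one summed to 212 and 191 CPM in aRG and 207 and 194 in bRG, and the basal one to 468 and 405 in aRG and 436 and 437 in bRG. Markers of other cells with rows, 8 of 11, summed to between 181 and 251 CPM, and 0 of them rose and 3 fell in neurons against aRG. Their part in the results was not tested.

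Accessibility was compared region by region with edgeR, and 21 of the 24 chimpanzee regions passed the filter on low counts. Against aRG, neurons differed at 18 of them (69.0% of all 198227 tested regions were called). Of these, 13 were higher, as were 37.2% of all regions, and 5 were lower, as were 31.7%. The median log2 fold change of the 21 was 1.57 and that of all tested regions 0.13. For bIP against aRG 12 differed (47.2% of all regions), 9 higher (24.5%) and 3 lower (22.6%), with medians of 0.45 and 0.05. For neurons against bIP 10 differed (47.6%), 8 higher (25.0%) and 2 lower (22.6%). For bIP against bRG 13 differed (42.9%), 9 higher (22.4%) and 4 lower (20.4%). For neurons against bRG 17 differed (67.9%), 12 higher (37.5%) and 5 lower (30.4%). The test for any difference among the 4 populations called 19 (73.5%). HYDIN alone supplied 9 of the 21 regions, which share 1 neighbourhood and are not independent of each other.

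Between bRG and aRG, the comparison closest to the later copies' known effects on basal progenitors, no region was called. The count was 0 of the 21 by edgeR, beside 0% of all regions, 0 by DESeq2, and 0 at an unadjusted p under 0.05 by either tool. Fold changes between bRG and aRG ran from -0.54 ± 0.49 at the HYDIN region 15.6 kb away to 0.69 ± 0.68 at the one 10.7 kb away. Among all regions 5232 had an unadjusted p under 0.05 and 0 an adjusted one. This does not show that the populations are alike at these genes.

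**Figure D2:**
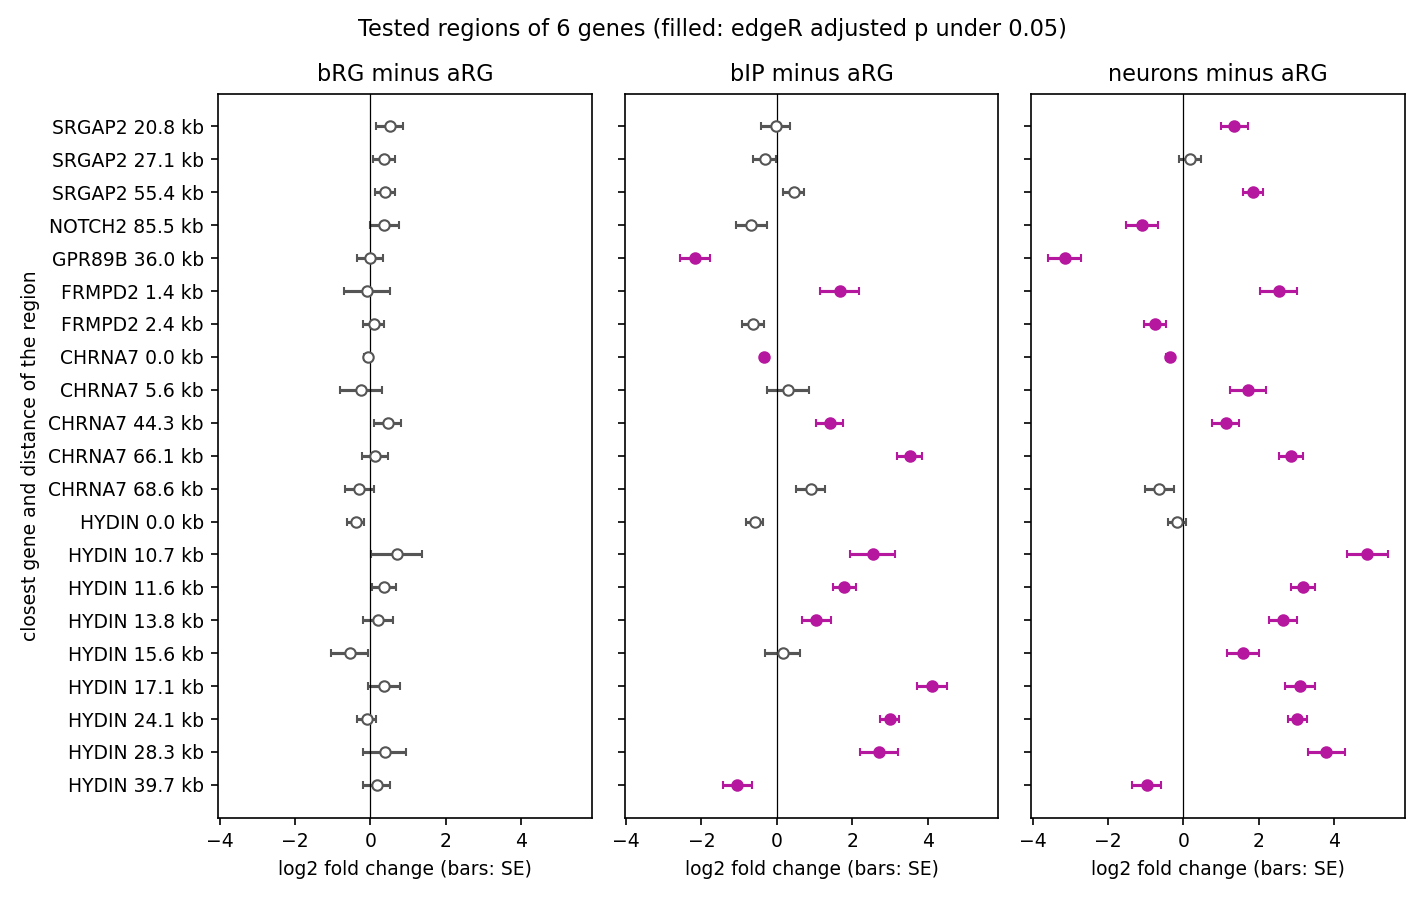
Log2 fold change with its SE (horizontal axis) of the 21 tested regions of 6 genes, listed by gene and distance, for bRG, bIP and neurons, each minus aRG; filled points have an edgeR adjusted p under 0.05. No point is filled for bRG, 12 are for bIP and 18 for neurons, where HYDIN at 10.7 kb reaches 4.88 and GPR89B -3.15.

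Counts were also summed over all regions of a gene, called its locus below, and 6 of the 7 genes with chimpanzee regions could be tested this way. Neurons differed from aRG at 3 (60.8% of all loci were called), HYDIN and SRGAP2 higher (32.8%) and GPR89B lower (28.0%). For bIP against aRG 3 passed (40.7%), HYDIN and CHRNA7 higher (22.0%) and GPR89B lower (18.7%). Neurons differed from bIP at 2 (40.1%), SRGAP2 higher (20.9%) and CHRNA7 lower (19.2%). Neurons differed from bRG at 4 (59.2%), 2 higher (31.9%) and 2 lower (27.3%), and bIP from bRG at 3 (37.9%), 2 higher (19.8%) and 1 lower (18.1%). The joint test over the 4 populations called 4 (63.8%). No locus passed for bRG against aRG, beside 0% of all loci. There SRGAP2 had an unadjusted p of 0.032 in edgeR's test, and DESeq2 called 0 as well.

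At the 3 regions named for SRGAP2 itself, accessibility was highest in neurons at 2. The region 55.4 kb away (chr1:181483793-181486196) gave 5.41 and 3.70 CPM in the aRG libraries. It gave 6.15 and 5.75 CPM in bRG, 6.61 and 5.80 in bIP and 13.7 and 19.3 in neurons. Both neuron libraries lay above all the others. The log2 fold change was 1.85 ± 0.27 (SE) for neurons against aRG (edgeR adjusted p = 6.2e-05) and 1.41 ± 0.27 against bIP (edgeR adjusted p = 0.0011). The region 20.8 kb away (chr1:181450273-181451510) gave 0.90 and 1.47 CPM in aRG, 1.38 and 2.01 in bRG, 1.31 and 1.00 in bIP and 2.76 and 3.30 in neurons. It rose by 1.35 ± 0.36 on the log2 scale in neurons against aRG (edgeR adjusted p = 0.0044), a call that was lost without aRG library 1 (log2 fold change 1.02). Against bRG the rise was 0.84 ± 0.34 (edgeR adjusted p = 0.043). That call was lost in 6 of 12 alternative settings, DESeq2 and RLE scaling among them. At the third, 27.1 kb away (chr1:181456583-181457174), neurons gave 2.67 and 2.44 CPM against 2.19 and 2.31 in aRG, and the difference did not pass (log2 fold change 0.18 ± 0.29, edgeR adjusted p = 0.60).

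The copy-named regions between them did not move the same way. All 5 SRGAP2B regions had negative fold changes in neurons against aRG, and 4 of them fell. The steepest, 46.8 kb away (chr1:181473441-181474763), gave 5.21 and 5.84 CPM in aRG, 6.18 and 6.80 in bRG, 1.42 and 2.42 in bIP and 0.84 and 0.55 in neurons. Neither bIP nor neuron libraries overlapped the radial glia, and the log2 fold change was -2.97 ± 0.36 for neurons against aRG (edgeR adjusted p = 1.2e-05) and -1.53 ± 0.33 for bIP against aRG (edgeR adjusted p = 0.0022). Both SRGAP2C and both SRGAP2D regions rose in neurons against aRG. The SRGAP2D region 34.2 kb away (chr1:181463574-181464223) gave 0.47 and 0.34 CPM in aRG, 0.44 and 0.68 in bRG, 0.44 and 0.46 in bIP and 2.67 and 5.22 in neurons. It rose by 3.27 ± 0.44 on the log2 scale (edgeR adjusted p = 3.1e-05). Of the 11 copy-named regions in the stretch, counting those of FAM72C and FAM72D, 4 rose and 5 fell in neurons against aRG, beside 37.2% and 31.7% of all regions, and 3 of these 9 calls were lost in at least 1 of 12 alternative settings. Most easily lost was the SRGAP2C region 34.1 kb away, whose log2 fold change of 1.5 failed in 7 of the 12.

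Summing by the listed name therefore divided one chimpanzee stretch into loci of opposite sign. The SRGAP2 locus, the sum over its 3 regions, gave 8.11 and 7.15 CPM in aRG, 10.1 and 11.2 in bRG, 10.5 and 9.33 in bIP and 20.4 and 26.0 in neurons, and rose by 1.60 ± 0.19 on the log2 scale in neurons against aRG (edgeR adjusted p = 0.00011). In the same comparison the SRGAP2B locus fell by 1.27 ± 0.20, while the SRGAP2C locus rose by 2.02 ± 0.34 and the SRGAP2D locus by 3.12 ± 0.41. With all 12 regions summed as one, an alternative added after seeing the data, the libraries gave 28.9 and 27.4 CPM in aRG, 32.1 and 35.6 in bRG, 23.8 and 27.5 in bIP and 35.1 and 45.7 in neurons. The rise in neurons against aRG was then 0.52 ± 0.15 on the log2 scale (edgeR adjusted p = 0.013), a smaller change than under the SRGAP2 name alone. Against bRG it no longer passed (log2 fold change 0.25, edgeR adjusted p = 0.16).

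**Figure D3:**
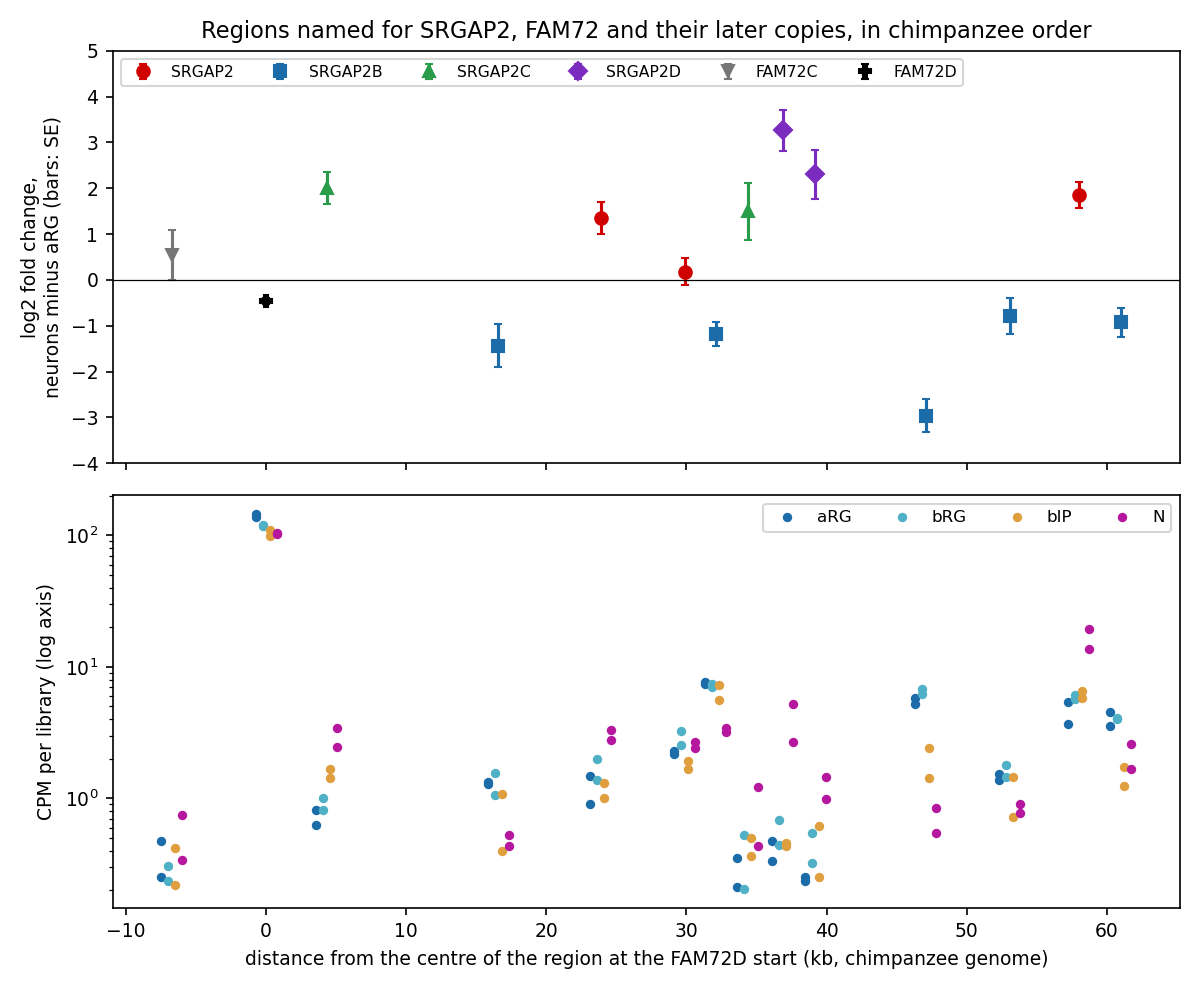
The 14 regions named for SRGAP2, FAM72 and their later copies, by distance in kb from the centre of the region at the FAM72D start; the top panel gives the log2 fold change of neurons minus aRG with its SE, marked by the gene named, and the bottom panel the CPM of each of the 8 libraries on a log axis, coloured by population. Regions named for SRGAP2B lie below 0, down to -2.97, between regions named for SRGAP2, SRGAP2C and SRGAP2D above 0, up to 3.27.

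FAM72A had no chimpanzee region under its own name. The region at the start of its copy FAM72D gave 138 and 145 CPM in aRG, 119 and 120 in bRG, 98.4 and 110 in bIP and 102 and 105 in neurons. The aRG libraries were the highest, the bRG libraries came next, and bIP and neurons overlapped. The gap between bRG and aRG was not called (log2 fold change -0.25 ± 0.07). The region fell by 0.46 ± 0.07 on the log2 scale in neurons and by 0.45 ± 0.07 in bIP, both against aRG (edgeR adjusted p = 5.9e-05 and 0.00022). Scaled and tested as a locus, the same reads gave smaller log2 fold changes, -0.32 ± 0.09 and -0.26 ± 0.09 (edgeR adjusted p = 0.014 and 0.045). Against bRG the region was called in neurons and bIP (edgeR adjusted p = 0.014 and 0.029), but the locus was not (0.18 and 0.43). These region calls were lost in 2 of 12 alternative settings for neurons and in 4 of 12 for bIP, each time under DESeq2 among others. The FAM72C region held at most 0.75 CPM in any library and did not pass in any comparison.

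NOTCH2, the receptor, kept 1 chimpanzee region, 85.5 kb from its start (chr1:119808297-119808768). It gave 0.90 and 0.71 CPM in aRG, 1.21 and 0.88 in bRG, 0.51 and 0.50 in bIP and 0.43 and 0.31 in neurons, from 8 to 41 reads per library. Radial glia lay above bIP and neurons in every library. The region fell by 1.09 ± 0.43 on the log2 scale in neurons against aRG (edgeR adjusted p = 0.037), but the call was lost under DESeq2 and without aRG library 1, aRG library 2 or neuron library 2. As a locus, tested among 40618 loci, the same reads gave -0.94 ± 0.37 and did not pass (edgeR adjusted p = 0.054), while against bRG they did (log2 fold change -1.40 ± 0.35, edgeR adjusted p = 0.0083), though not under DESeq2 (-1.46) or without bRG library 1 (-1.17). A region without a listed gene in the same neighbourhood (chr1:119816777-119818526) moved the other way. It gave 4.15 and 3.95 CPM in aRG and 8.20 and 9.23 in neurons, and rose by 1.10 ± 0.27 on the log2 scale (edgeR adjusted p = 0.0028). None of the NOTCH2NL copies had a chimpanzee region.

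GPR89B, the Golgi pH regulator, showed the largest fall among the 10 genes. Its region 36.0 kb from the start (chr1:121933034-121933869) gave 2.82 and 2.77 CPM in aRG, 2.65 and 2.89 in bRG, 0.36 and 0.88 in bIP and 0.34 and 0.27 in neurons. Both kinds of radial glia were level and stood clear of bIP and neurons, and neurons lay just below bIP. It fell by 3.15 ± 0.43 on the log2 scale in neurons and fell by 2.17 ± 0.39 in bIP, both against aRG (edgeR adjusted p = 3.2e-05 and 0.00077), and both calls passed in all 12 alternative settings. A region without a listed gene in that neighbourhood (chr1:121898829-121900165) gave between 27.2 and 34.8 CPM in the 8 libraries and was not called in neurons against aRG (log2 fold change -0.03 ± 0.11, edgeR adjusted p = 0.84). Another one there (chr1:121911158-121912723), named after its values were seen, also fell in neurons against aRG (log2 fold change -1.68 ± 0.46, edgeR adjusted p = 0.0056). It was not called in bIP against aRG (edgeR adjusted p = 0.11).

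At CHRNA7 the start fell in neurons against aRG, whereas 3 of the 4 other tested regions rose. The region at the start (chr15:10250959-10253212) gave 43.6 and 44.2 CPM in aRG, 42.2 and 41.3 in bRG, 34.9 and 34.9 in bIP and 35.9 and 32.4 in neurons. Radial glia lay above bIP and neurons, and the start fell by 0.36 ± 0.10 on the log2 scale in neurons (edgeR adjusted p = 0.0053) and by 0.33 ± 0.10 in bIP (edgeR adjusted p = 0.014), both against aRG. The first of these calls was lost without neuron library 2 and the second without either aRG library and under DESeq2. Limited to 1 kb, the CHRNA7 locus is this region alone. Scaled and tested among loci limited in that way, it was not called in any comparison, and its fall in bIP was smaller, as given below. The region 66.1 kb away (chr15:10318596-10319652) gave 0.82 and 0.80 CPM in aRG, 0.88 and 0.88 in bRG, 10.2 and 8.48 in bIP and 6.95 and 4.79 in neurons. It was low in all 4 radial glia libraries and rose by 3.52 ± 0.33 on the log2 scale in bIP and by 2.85 ± 0.33 in neurons, both against aRG (edgeR adjusted p = 1.2e-05 and 8.0e-06).

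Its neighbour 68.6 kb away (chr15:10321139-10322641), named here after its values were seen, was already open in radial glia. It gave 11.3 and 7.39 CPM in aRG, 9.0 and 6.26 in bRG, 21.6 and 13.3 in bIP and 8.51 and 3.42 in neurons. Here bIP lay above neurons and aRG and neurons overlapped, and the region fell by 1.54 ± 0.39 on the log2 scale in neurons against bIP (edgeR adjusted p = 0.0062), a call lost without bIP library 1. The regions 44.3 kb and 5.6 kb away rose in neurons against aRG, by 1.13 ± 0.36 and 1.72 ± 0.48. Both calls were lost under DESeq2 and without 1 or more libraries. The region 12.5 kb away did not pass the filter on low counts.

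Summed over its 6 regions, the CHRNA7 locus gave 54.3 and 51.5 CPM in aRG, 53.7 and 50.9 in bRG, 76.4 and 63.0 in bIP and 57.8 and 44.9 in neurons. The bIP libraries were the highest and neurons overlapped radial glia. The rise in bIP against aRG was 0.40 ± 0.14 on the log2 scale (edgeR adjusted p = 0.049). That call was lost in 7 of 14 alternative settings, namely under RLE scaling, without any 1 of the aRG or bRG libraries, without bIP library 1 (0.25) and with only the regions within 50 kb of the start (-0.09). The rise in bIP against bRG was lost in 6 of 14, and the fall in neurons against bIP in 5 of 14, without either aRG library, bIP library 1 or neuron library 2 and within 50 kb, with log2 fold changes from -0.63 to -0.05 over the 14. The joint test over the 4 populations did not pass (edgeR adjusted p = 0.050267). The region named for CHRFAM7A, at that gene's start, held at most 0.37 CPM and did not pass the filter.

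HYDIN, which encodes a protein of the central apparatus of motile cilia, had the most regions and the largest rise. Its start (chr16:58539895-58541110) gave 9.60 and 10.2 CPM in aRG, 6.86 and 8.34 in bRG, 6.69 and 6.53 in bIP and 8.26 and 9.39 in neurons, and was not called in neurons against aRG (log2 fold change -0.17 ± 0.23, edgeR adjusted p = 0.52). Away from the start, 7 of the 8 other tested regions rose in neurons against aRG and 1 fell. The region 24.1 kb away (chr16:58515095-58516555) gave 3.17 and 2.69 CPM in aRG, 3.03 and 2.45 in bRG, 28.7 and 18.0 in bIP and 23.1 and 24.5 in neurons. Neurons and bIP overlapped far above radial glia, with log2 fold changes of 3.02 ± 0.25 for neurons and 2.99 ± 0.25 for bIP against aRG (edgeR adjusted p = 8.3e-07 and 7.1e-06).

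The region 10.7 kb away (chr16:58550823-58551310) had the largest change of the 21 tested regions. It gave 0.20 and 0.21 CPM in aRG, 0.35 and 0.31 in bRG, 1.85 and 0.54 in bIP and 6.21 and 5.97 in neurons, and rose by 4.88 ± 0.55 on the log2 scale in neurons against aRG (edgeR adjusted p = 6.7e-06). It was higher in neurons than in bIP too (log2 fold change 2.34 ± 0.43, edgeR adjusted p = 0.00087), whereas the region 17.1 kb away was higher in bIP. That one (chr16:58522076-58523302) gave 0.67 and 0.76 CPM in aRG, 16.2 and 8.60 in bIP and 7.17 and 5.03 in neurons, and its fall from bIP to neurons (log2 fold change -1.02 ± 0.32, edgeR adjusted p = 0.021) was lost without bIP library 1 (-0.50) or without neuron library 2. The regions at 11.6, 13.8, 15.6 and 28.3 kb rose in neurons against aRG by 3.17, 2.64, 1.58 and 3.79 on the log2 scale, and the rise at 15.6 kb was lost in 3 of 12 alternative settings. The region 39.7 kb away fell by 0.97 ± 0.38 (edgeR adjusted p = 0.037), again lost in 3 of 12. The region at 46.0 kb did not pass the filter on low counts.

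The HYDIN locus gave 21.1 and 19.4 CPM in aRG, 21.3 and 19.7 in bRG, 81.7 and 49.1 in bIP and 92.5 and 87.5 in neurons. Radial glia of both kinds were level and every bIP and neuron library lay above them. The rise was 2.15 ± 0.21 on the log2 scale in neurons and 1.69 ± 0.21 in bIP, both against aRG (edgeR adjusted p = 4.5e-05 and 0.00043). Within bIP, library 1 lay above library 2 at 9 of 10 HYDIN regions, and without library 1 the rise in bIP was 1.28. The summed level of 7 radial glia markers was 333 CPM in bIP library 1 and 425 in bIP library 2, and its part in this gap was not tested. The HYDIN2 region, 53.5 kb from the human HYDIN2 start, gave 2.98 and 4.26 CPM in bIP and 2.33 and 1.18 in neurons, and fell between them (log2 fold change -1.03 ± 0.36, edgeR adjusted p = 0.030). It gave 2.00 and 2.23 CPM in aRG, and neither neurons nor bIP passed against aRG (edgeR adjusted p = 0.56 and 0.090). The joint test over the populations did not pass (edgeR adjusted p = 0.078), and the fall was not among the calls recomputed under alternatives.

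**Figure D4:**
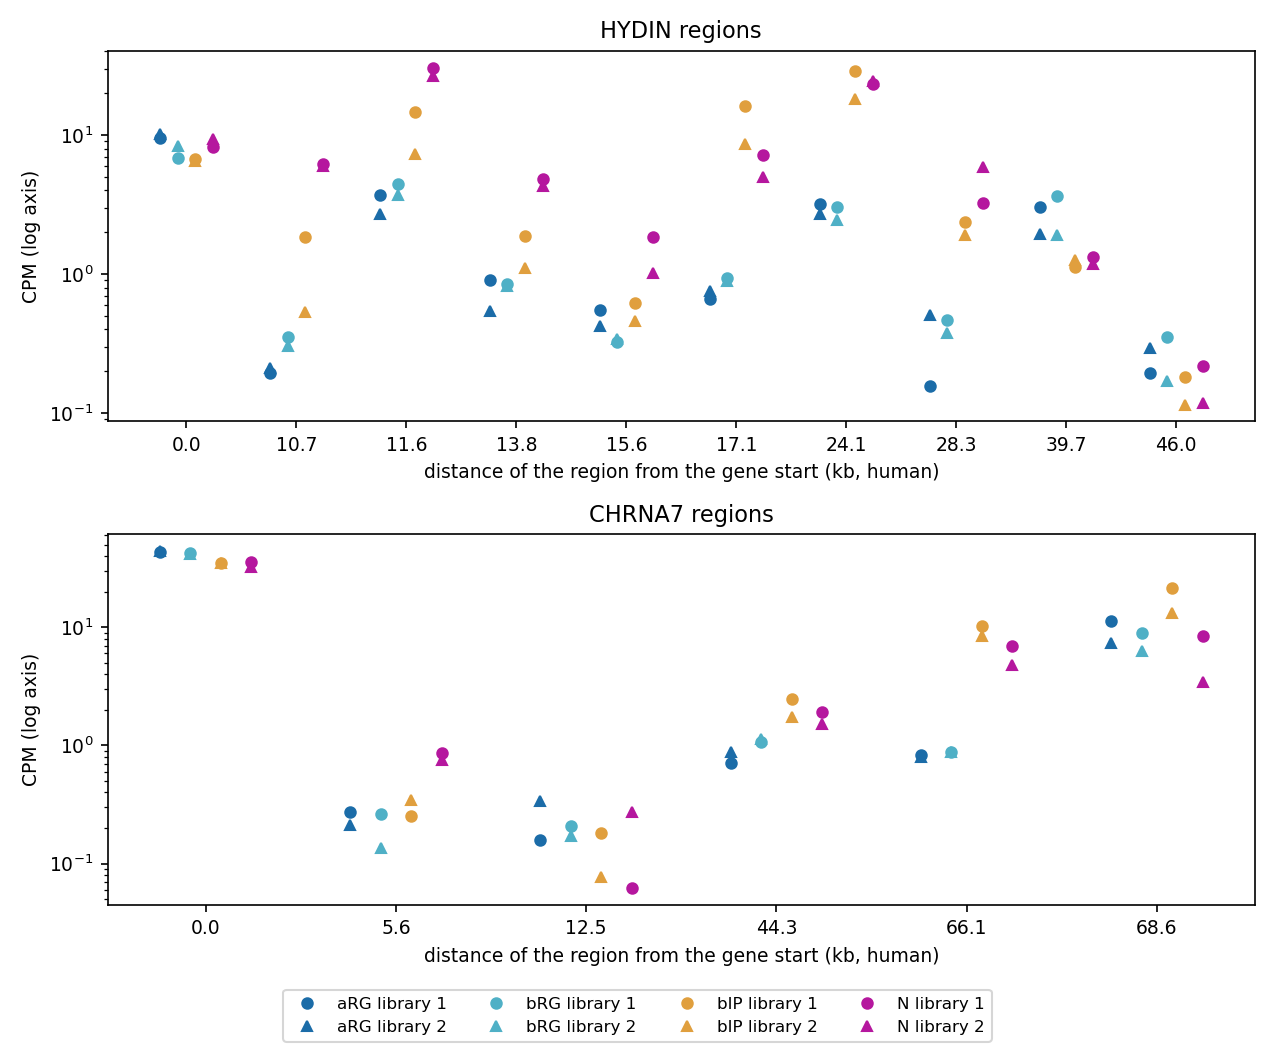
CPM on a log axis in each of the 8 libraries (circles, library 1; triangles, library 2; colours, populations) for the 10 HYDIN and 6 CHRNA7 regions, ordered by distance from the gene start in kb. Populations lie close together at both starts (0.0 kb), and bIP and neurons stand above radial glia at the HYDIN regions from 10.7 to 28.3 kb, 15.6 kb excepted for bIP, and at the CHRNA7 region 66.1 kb away.

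FRMPD2, the PDZ scaffold, had a pair of regions 707 bp apart that moved in opposite directions. The one 1.4 kb from the start (chr10:44164347-44164642) gave 0.27 and 0.13 CPM in aRG, 0.15 and 0.24 in bRG, 0.76 and 0.54 in bIP and 1.12 and 1.26 in neurons, and rose by 2.53 ± 0.49 on the log2 scale in neurons against aRG (edgeR adjusted p = 0.00055). The one 2.4 kb away (chr10:44162466-44163639) gave 5.84 and 5.21 CPM in aRG, 6.94 and 4.76 in bRG, 3.16 and 3.95 in bIP and 3.14 and 3.42 in neurons. It fell by 0.75 ± 0.29 (edgeR adjusted p = 0.034), a call that was lost when any aRG or neuron library was left out. Their sum did not pass (locus log2 fold change -0.22 ± 0.23, edgeR adjusted p = 0.43), with 5.83 and 5.10 CPM in aRG, 7.10 and 5.11 in bRG, 4.31 and 4.81 in bIP and 4.54 and 4.86 in neurons. The FRMPD2B region gave 2.98 and 2.39 CPM in aRG, 2.74 and 3.67 in bRG, 8.14 and 9.21 in bIP and 8.44 and 6.95 in neurons, and rose by 1.52 ± 0.28 in neurons against aRG (edgeR adjusted p = 0.00040).

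TBC1D3 could not be tested on its own. Its region 7.9 kb away (chr17:18557448-18558001) held 0 and 5 reads in aRG, 8 and 6 in bRG, 1 and 7 in bIP and 9 and 13 in neurons, and did not pass the filter. The TBC1D3E region, 581 bp away, held between 1 and 12 reads. Why these counts are low was not tested. Summed together, an alternative added after seeing the data, they gave 0.037 and 0.32 CPM in aRG, 0.38 and 0.45 in bRG, 0.24 and 0.53 in bIP and 0.53 and 1.02 in neurons. The sum rose by 2.09 ± 0.73 on the log2 scale in neurons against aRG (edgeR adjusted p = 0.033), from 1 and 8 reads in aRG. Neurons did not pass against bRG or bIP (edgeR adjusted p = 0.25 and 0.26), nor did the joint test over the populations (edgeR adjusted p = 0.14).

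ARHGAP11A and TMEM14B were named by no row, and regions beside them carried the names of non-coding genes. The order of genes in the RefSeq assembly NHGRI_mPanTro3-v2.0_pri was used to find them, after the values had been seen. The region at the start of AC123768.3 beside ARHGAP11A (chr15:10826028-10827813) gave 42.5 and 44.8 CPM in aRG, 38.7 and 37.4 in bRG, 33.9 and 34.1 in bIP and 34.8 and 37.0 in neurons. It fell by 0.28 ± 0.10 on the log2 scale in neurons and by 0.36 ± 0.10 in bIP, both against aRG (edgeR adjusted p = 0.021 and 0.0091). Neither passed against bRG (edgeR adjusted p = 0.46 and 0.21), and these small falls were not among the calls recomputed under alternatives. The region at the start of AL024498.1 beside TMEM14B (chr6:10604467-10605922) gave between 28.5 and 34.8 CPM in the 8 libraries and was not called in neurons against aRG (edgeR adjusted p = 0.85). Whether these regions serve the named genes or their neighbours was not tested.

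The deposited consensus peak lists, 1 per population with no replicate spread, overlapped 8 of the 24 regions in aRG, 10 each in bRG and bIP, and 14 in neurons. The same lists overlapped 37.7%, 39.2%, 37.4% and 38.1% of all 211348 regions. Of the 24, 5 were overlapped in all 4 lists, namely the CHRNA7 and HYDIN starts, HYDIN at 11.6 and 24.1 kb, and FRMPD2 at 2.4 kb. Another 6 were overlapped in none.

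Genes that work with these ones were followed as lists of loci. Among 13 tested Notch receptors, ligands and partners, 2 rose and 5 fell in neurons against aRG (32.8% and 28.0% of all loci, the shares to set beside each list below), led by the receptors NOTCH3 (48.3 ± 0.56 CPM in aRG and 17.7 ± 0.66 in neurons, SD, n = 2; log2 fold change -1.44 by edgeR) and NOTCH1 (-0.93), and in neurons against bIP 0 rose and 8 fell (20.9% and 19.2% of all loci). Of 10 tested nicotinic receptor subunits other than CHRNA7, 6 rose and 1 fell in neurons against aRG. CHRNA4, the partner of CHRNB2 in the main brain receptor, rose by 1.58, from 25.4 ± 1.67 CPM in aRG to 76.3 ± 11.7 in neurons, and CHRNA9 fell by 0.96. Of 15 tested relatives and partners of SRGAP2 and ARHGAP11A, 2 rose and 8 fell, with CDC42, the small GTPase, at 4.02 and SLIT2, a guidance cue that acts through ROBO receptors, at -1.18. In the TMEM14 family 1 of 4 rose (TMEM14EP, 0.83) and 1 fell (TMEM14C, -0.32). Of 14 other tested genes duplicated in human, 3 rose and 4 fell, with the neuropeptide receptor gene NPY4R at -2.38 and TCAF2, a regulator of TRP channels, at -1.90. The medians of these 5 lists were -0.10, 0.61, -0.26, -0.04 and 0.09, and that of all loci 0.05. Of the later copies 7 could be tested as loci, and 3 rose and 2 fell, with a median of 0.68.

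The loci most like each gene over the 8 libraries were named by Pearson's r of log2 CPM among 12019 protein-coding loci, as a description in which the 4 populations set most of the likeness. For HYDIN they were PLXDC1 (r = 0.9987) and CA5A (0.9964), for SRGAP2 CTNNA1 (0.9944) and ANKRD17 (0.9900), for GPR89B MOCS2 (0.9968) and ZNF346 (0.9966), and for NOTCH2 GPC1 (0.9813) and WFDC2 (0.9775). Such likeness was common, with 619 loci over an r of 0.95 for HYDIN, 802 for GPR89B, 88 for SRGAP2 and 46 for NOTCH2. The NOTCH2 and GPR89B loci, of 1 region each, averaged only 0.69 and 1.62 CPM over the 8 libraries.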

How the data were processed

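Per the file headers, the deposited table holds raw counts of reads for 8 libraries, each region named by its place in up to 3 species and by a closest gene. Named in the submitters' processing notes, with no role, are bcl2fastq 2.20.0, MACS2, panTro6 and hg38. Not given in the sources used here are the aligner, its handling of reads that fit several copies and the matching of species, so reads of near-identical copies may be split or lost. The authors' deposited consensus peaks carry a score, a fold enrichment as a ratio and a -log10 q-value, of which the scores and ratios served no comparison here. Chimpanzee coordinates are panTro6, counted from 1.

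Rows without a chimpanzee identifier (6725) and 7 repeated identifiers were left out, leaving 211348 regions with a median width of 858 bp. The counts went into 1 fit of all 8 libraries by edgeR 4.0.16, with TMM scaling, filterByExpr and the quasi-likelihood F-test, as regions and as loci, the sum over regions of the same closest gene at any distance. P-values were adjusted by Benjamini-Hochberg over all features tested and called under 0.05. For fold changes, values with ± are SE worked back from the F-test, as the absolute log2 fold change over the square root of F. At low counts they are approximate. The test was also run on simulated data, with libraries drawn independently and changes planted only in features above a floor on mean reads. That run does not cover regions with fewer reads or effects that libraries share. Members and lists were chosen with earlier results of these data known. Of each gene's regions, those described singly by rule were the nearest, the one with the highest mean CPM and the called one with the largest fold change in neurons against aRG, and others complete a gene. Likeness ranked loci of 5 CPM or more on average, a floor not asked of the genes they were compared with. Alternatives were DESeq2 1.42.0, RLE scaling, no filter, a replicate block, each library left out, loci limited to 50 kb or 1 kb, and stricter peak overlaps. Libraries held 24913928 to 34845193 reads in these regions, which sets the reads behind 1 CPM.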

Additional observations from a re-analysis of the deposited data

How the results depend on the processing

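For regions, 100 differences called at the 10 genes and the copy-named neighbours of SRGAP2 were recomputed under 12 alternatives, giving 1200 values. Of these 1050 stayed called, 150 lost the call and 0 changed sign. Counted by call, many at the 10 genes were lost in at least 1 of the 12 alternatives. These were 8 of 18 for neurons against aRG, 6 of 12 for bIP against aRG and 7 of 13 for bIP against bRG. For neurons they were 6 of 17 against bRG and 6 of 10 against bIP. DESeq2 lost 26 of the 100 and RLE scaling 3. RLE scaling moved the median log2 fold change of all regions, neurons against aRG, by -0.10, from 0.13 to 0.03, and no called region changed sign. For loci, 15 differences gave 216 values, of which 187 stayed called, 23 lost the call and 6 changed sign. The sign changes came with fewer regions in the sum: CHRNA7 within 50 kb gave -0.09 for bIP against aRG and -0.11 against bRG, CHRNA7 within 1 kb gave -0.09 and -0.13, and HYDIN within 1 kb gave -0.35 and -0.07. Within 1 kb, 2 loci could be tested and 0 were called in any comparison. Each of these sums was the region at the gene's start alone. Scaled among all regions, the CHRNA7 start gave -0.33 for bIP against aRG and -0.26 against bRG, and the HYDIN start -0.59 and -0.20. Within 50 kb the called loci were 2 for neurons against bRG and 1 for neurons against bIP. With each library left out in turn, called regions numbered from 7 to 14 for bIP against aRG (7 without bIP library 1) and from 6 to 13 for bIP against bRG (7 and 8 without bRG libraries 1 and 2, 6 without bIP library 1), and called loci from 1 to 3 for neurons against bIP (1 without aRG library 1, aRG library 2 or neuron library 2). The cause was not tested.

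Numbers 1 and 2 are not stated to mark a batch. Deviations of same-numbered libraries correlated at 0.116 to 0.313 over regions and at 0.171 to 0.492 over loci, each time highest for aRG and bRG. With the number as a replicate block, each of the 100 region calls and 15 locus calls stayed called, and 14 regions were called for bIP against aRG, 19 for neurons against aRG, 16 for bIP against bRG and 0 for bRG against aRG. TBC1D3 held 0 to 13 reads per library and NOTCH2 8 to 41, so small differences there were not detectable at this depth.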

Other observations

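Some regions near the 10 genes carry no listed gene and so fall outside the rule. Beyond the last HYDIN region (chr16:58602182-58603056) such a region gave 11.5 and 7.64 CPM in aRG, 11.1 and 6.02 in bRG, 1.89 and 2.23 in bIP, and 1.61 and 2.36 in neurons. It fell by 2.27 ± 0.37 on the log2 scale in neurons against aRG (edgeR adjusted p = 0.00012), opposite to most HYDIN regions. Near TBC1D3 (chr17:18578161-18578632) another gave 1.25 and 1.64 CPM in aRG and 0.34 and 0.35 in neurons, a fall of 2.04 ± 0.38 (edgeR adjusted p = 0.00039). Beside GPR89B (chr1:121911158-121912723) a further region gave 2.98 and 1.09 CPM in aRG, 3.60 and 3.65 in bIP, and 0.78 and 0.47 in neurons, and fell by 2.51 ± 0.45 in neurons against bIP (edgeR adjusted p = 0.00076).

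A second AL024498.1 region, 10.2 kb from that gene's start and near TMEM14B (chr6:10593918-10594892), gave 0.27 and 0.59 CPM in aRG, 0.38 and 0.34 in bRG, 1.71 and 1.42 in bIP, and 7.54 and 12.1 in neurons. It rose by 4.50 ± 0.42 on the log2 scale in neurons against aRG (edgeR adjusted p = 1.6e-06), while the region at the gene's start was not called. These regions were chosen after their values were seen.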
